A study of Mus musculus with 4 samples.

Results

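The SIBLING genes (small integrin-binding ligand, N-linked glycoproteins) encode the acidic phosphoproteins that cells secrete into dentin and bone. The 5 genes, Dspp, Dmp1, Ibsp, Mepe and Spp1, were taken by symbol from the deposited table of 24972 gene rows. All 5 had a row and all 5 were among the 17979 genes with enough signal to be tested. They were measured by RNA sequencing in dissected mandibular dental arches (the strip of lower jaw that carries the teeth) from mice at embryonic day 17.5. There were 2 libraries of genotype Ascl5WTWT (15 and 20, called wild type) and 2 of Ascl5MutMut (18 and 14, called mutant), which carry 2 copies of a variant of Ascl5, a gene of the basic helix-loop-helix transcription factor family. No other allele, agent or treatment is named for either group. The sources used here do not give the strain, the effect of the variant on the gene, or whether embryos were pooled. The labels do not say whether the libraries of a genotype came from separate embryos. Xist RNA, given below, was high in library 15 and low in library 20, so these wild-type libraries were not repeats of the same sample. For the mutant libraries this is not known. The p-values reflect only how these samples vary, and part of that variation may be technical. The series asks what the variant does to transcript levels in the forming jaw and teeth, and for these genes the question becomes whether the dentin gene and the bone genes differed with genotype, and differed alike.

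SIBLING proteins are rich in acidic residues and phosphates, bind calcium, and carry an Arg-Gly-Asp sequence through which cells attach by integrins. Dspp (dentin sialophosphoprotein) is the main non-collagen protein gene of odontoblasts, the cells that lay down dentin, and is made briefly by young ameloblasts, the enamel cells. Dmp1 (dentin matrix acidic phosphoprotein 1) is made by odontoblasts and, most strongly, by osteocytes. Ibsp (bone sialoprotein) promotes mineral formation in osteoblasts and also marks hypertrophic cartilage. Mepe is an osteocyte gene whose acidic peptide restrains mineral growth. Spp1 (osteopontin) also restrains mineral growth and is made by osteoblasts, osteoclasts and macrophages.

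The 5 genes lie next to each other on chromosome 5 (GRCm38, the assembly that mm10 denotes), all on the plus strand, within 270 kb from 104170703 to 104441053. In RefSeq, Dspp runs from 104170703 to 104180127, Dmp1 from 104197575 to 104214102, Ibsp from 104299287 to 104311472, Mepe from 104325329 to 104338611 and Spp1 from 104435111 to 104441053. No other gene with a row in the table lies between them. The 130 bases before the start sites are shown because 4 of the 5 genes share a short element there, CCAAT, read on the other strand as ATTGG, which is in capitals. Sequences are from RefSeq (GRCm38.p6), 5′ to 3′ on the plus strand, and Dmp1 and Spp1 have 2 annotated starts each.

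Ibsp, chr5:104299157-104299286: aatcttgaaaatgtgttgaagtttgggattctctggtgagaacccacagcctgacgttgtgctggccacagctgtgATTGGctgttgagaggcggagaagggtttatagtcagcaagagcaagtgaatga
Spp1, first start, chr5:104434981-104435110: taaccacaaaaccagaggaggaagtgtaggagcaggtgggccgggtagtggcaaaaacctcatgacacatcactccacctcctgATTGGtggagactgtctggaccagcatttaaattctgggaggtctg
Mepe, chr5:104325199-104325328: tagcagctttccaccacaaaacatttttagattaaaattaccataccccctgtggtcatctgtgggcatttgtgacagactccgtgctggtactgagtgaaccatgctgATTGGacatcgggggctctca
Dmp1, first start, chr5:104197445-104197574: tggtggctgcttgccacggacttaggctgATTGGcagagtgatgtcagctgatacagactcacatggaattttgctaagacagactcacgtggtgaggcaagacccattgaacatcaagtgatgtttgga
Dmp1, second start, chr5:104202487-104202616: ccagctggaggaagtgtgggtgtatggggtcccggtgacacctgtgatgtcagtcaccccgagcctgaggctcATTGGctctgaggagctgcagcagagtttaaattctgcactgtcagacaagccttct

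Counting back from the base before the start as -1, ATTGG begins at -54 in Ibsp, -46 in Spp1, -21 in Mepe, and -101 and -57 at the 2 Dmp1 starts. At the later Spp1 start these letters are not in the window. Searched on both strands, CCAAT occurs in this window in 22.4% of the 32851 RefSeq promoters. The Dspp promoter is not in the table used. The E-box CANNTG, the general binding sequence of basic helix-loop-helix factors, occurs in the same window of all 4 genes shown and in 42.7% of all promoters. The Runx-type sequence TGTGGT, searched on both strands, occurs in Mepe (at -118 as ACCACA and at -80) and in Spp1 (at -128 as ACCACA), and in 7.26% of all promoters. None of these matches overlapped a match to another of the 3 motifs. The matches describe letters only, and the data hold no measurement of binding.

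The deposited values are normalized counts, and they sum to between 22134483 and 22578580 per library, so the libraries are of like depth on this scale. Ascl5 was at 21.8 and 37.3 (wild type 15 and 20) against 10.6 and 12.1 (mutant 18 and 14), which does not check the labels, since the effect of the variant on the transcript is not given. Xist RNA, which coats the silenced X chromosome of female cells, stood at 38619 in library 15 (wild type) and at no more than 12.7 in any other library. This female signal was thus in wild type only, so sex was not balanced between the genotypes. The part of sex in the values below, and in the fits without library 15, was not tested. The 12 keratinocyte genes (Krt1, Krt5, Krt10 and others, none of these 3 at 0) summed to between 119695 and 120005 in wild type. In mutant they summed to between 186113 and 278475. The 9 salivary gland genes summed to between 143 and 148 in wild type and between 165 and 2078 in mutant, and library 14 was highest for both lists. Outside library 14 most of the salivary sum was Kcnn4, at 121, 142, 120 and 120 in libraries 15, 20, 18 and 14. In the same order Dcpp1 was at 3.16, 0, 16.2 and 249, and Bpifa2 at 0, 0, 0 and 1009.

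Of the 5 genes, Dmp1 was the one whose genotypes did not overlap. Dspp, Ibsp, Mepe and Spp1 overlapped between genotypes, and mutant library 14 was the lowest of the 4 libraries for each of the 5 genes. With limma over all genes, 0 of the 5 passed the threshold of 0.05 after Benjamini-Hochberg adjustment, beside 0.0111% of all genes tested. At an unadjusted p under 0.05 there was 1 of the 5, Dmp1, beside 4.27% of all genes. The genotypes did not overlap in 1 of the 5, again Dmp1, beside 27.4% of all genes (14% lower and 13.4% higher in mutant). In bulk tissue, fewer cells of a type and less RNA per cell cannot be told apart, and this holds for every value below.

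**Figure D1:**
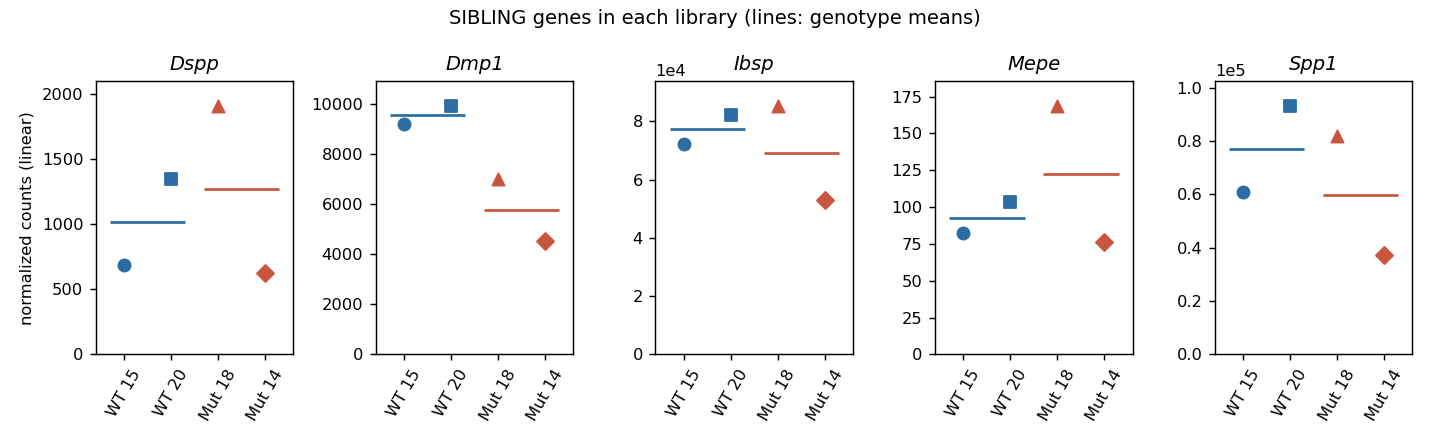
Normalized counts of the 5 SIBLING genes (linear y axis from 0, a scale of its own for each gene) in wild-type (WT, blue) and mutant (Mut, red) libraries; each point is 1 library and each line a genotype mean of 2 libraries. Both mutant libraries lie below both wild-type libraries for Dmp1, and the genotypes overlap for the other 4 genes.

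The normalized count of Dspp was 687 and 1346 (wild type 15 and 20) against 1910.2 and 629 (mutant 18 and 14). The highest and the lowest value both came from mutants, and each genotype held 1 high and 1 low library. Library 20 stood 1.96-fold over library 15, and library 18 stood 3.04-fold over library 14. The means were 1017 ± 466 in wild type and 1269 ± 906 in mutant (SD, n = 2 each). On the log2(value + 0.5) scale used for all fold changes, mutant minus wild type was 0.19 (SE 0.50, limma adjusted p = 0.9999). Its 95% interval ran from -0.96 to 1.34, or from 0.513-fold to 2.53-fold, too wide with 2 libraries a genotype to give the dentin gene a direction.

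Dmp1 was at 9197 and 9940.2 (wild type 15 and 20) against 7026 and 4554 (mutant 18 and 14). Neither mutant library reached the lower of the wild-type libraries. The means were 9569 ± 526 and 5790 ± 1748 (SD, n = 2 each). Taken from the log2 fold change rather than from these means, the mutant level was 0.592 of wild type. The log2 fold change was -0.76 (SE 0.21, 95% interval -1.25 to -0.27, unadjusted p = 0.00757) and did not pass over all genes (limma adjusted p = 0.685). The wild-type libraries differed by 1.08-fold, the mutant libraries by 1.54-fold. Without mutant library 14 the log2 fold change was -0.44 and without mutant library 18 it was -1.07. The unadjusted limma p rose above 0.05 without wild-type library 15 (0.056), without wild-type 20 (0.086), without mutant 14 (0.064) and in a fit with no trend of variance on level (0.053). The keratinocyte sums given above were higher in the libraries where Dmp1 was lower, and their part in this difference was not tested.

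Ibsp was the most even member across libraries. Its values were 72365 and 82268 (wild type 15 and 20) against 85314 and 52902 (mutant 18 and 14). Mutant library 18 lay above both wild-type libraries and mutant library 14 below both. The log2 fold change was -0.20 (SE 0.30, 95% interval -0.89 to 0.49, limma adjusted p = 0.9999). Its highest library stood 1.61-fold over its lowest, against 3.04-fold for Dspp.

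Spp1 was at 61080.4 and 93203 (wild type 15 and 20) against 82045 and 37150.5 (mutant 18 and 14). Wild-type library 20 was the highest and mutant library 14 the lowest, with the other libraries between them. The log2 fold change was -0.45 (SE 0.40, 95% interval -1.38 to 0.48, limma adjusted p = 0.9999). The spread between libraries of a genotype was 1.53-fold in wild type and 2.21-fold in mutant.

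Mepe had the lowest values of the family and the least depth. It was at 82.0 and 103 (wild type 15 and 20) against 169 and 76.1 (mutant 18 and 14). As for Dspp, mutant library 18 was the highest and mutant library 14 the lowest. The log2 fold change was 0.30 (SE 0.39, 95% interval -0.61 to 1.20, limma adjusted p = 0.9999).

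The direction of 4 of the 5 genes turned when 1 library was left out. Without mutant library 14 the log2 fold change turned to 0.14 for Ibsp and 0.12 for Spp1, and grew to 0.99 for Dspp and 0.87 for Mepe. Without mutant library 18 it turned to -0.61 for Dspp and -0.27 for Mepe, and was -0.54 for Ibsp and -1.02 for Spp1. Without wild-type library 15 Dspp turned to -0.30, Mepe was 0.13 and Spp1 -0.76. Without wild-type library 20 Dspp was 0.67, Mepe 0.46, Ibsp -0.11 and Spp1 -0.15. Dmp1 was lower in mutant in each of the 4 fits.

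Per length of exon, Spp1 and Ibsp stood highest and Mepe lowest. Values were divided by the length of all annotated exons of the gene (GENCODE M21, which may differ from the authors' annotation), which was 1648 bases for Spp1, 2068 for Ibsp, 2764 for Dmp1, 4431 for Dspp and 1682 for Mepe. Spp1 was at 22543 to 56555 normalized counts per kb over the 4 libraries and Ibsp at 25581 to 41254, so these neighbours in the order overlapped. Dmp1 followed at 1648 to 3596 per kb, Dspp at 142 to 431 and Mepe at 45.2 to 100.3, and none of these ranges met. The 5 genes together made up 0.642% and 0.828% of the normalized counts of wild-type libraries 15 and 20, and 0.784% and 0.431% of those of mutant libraries 18 and 14.

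Set against the bone genes within each library, which removes any scaling between libraries, the dentin gene varied as much within a genotype as between them. The log2 level of Dspp minus the mean log2 level of Dmp1, Ibsp, Mepe and Spp1 was -3.47 and -2.81 (wild type 15 and 20) against -2.32 and -3.02 (mutant 18 and 14). Mutant library 18 had the most Dspp for its bone genes and wild-type library 15 the least, with the other libraries between. The genotype means were -3.14 ± 0.47 and -2.67 ± 0.50 (SD, n = 2 each), a difference of 0.47 (exact two-sided permutation test, p = 0.667). With 2 libraries against 2 this test cannot give a p under 0.333. In plain ratios, which are not corrected for gene length and are to be read across libraries only, there were 105 Ibsp counts per Dspp count in wild-type library 15, 61.1 in wild-type 20, 44.7 in mutant 18 and 84.1 in mutant 14.

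Ratios between the bone genes differed from library to library as well. Of the 10 ratios between pairs of the 5 genes, 6 did not overlap between genotypes, where 30.4% of all pairs of tested genes did not. Dmp1 is in 3 of the 6, and so is Mepe. The 10 ratios come from 5 genes and are not independent. Dmp1 was 12.7% and 12.1% of the Ibsp count (wild type 15 and 20) against 8.24% and 8.61% (mutant 18 and 14). This ratio was nearly the same in the libraries of a genotype and lower in both mutant libraries. On the log2 scale it was -3.01 ± 0.05 in wild type and -3.57 ± 0.05 in mutant (SD, n = 2 each), a difference of -0.56 (exact two-sided permutation test, p = 0.333, the smallest it can give). Leaving out each library in turn, the difference stayed between -0.59 and -0.52. This ratio was singled out from the 10 after the values were seen, so that narrow range is no separate support. Library 14 was low for both genes, and their ratio did not overlap between genotypes where Ibsp alone did.

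The other ratios of Dmp1 were wider. Dmp1 over Mepe was 1.06 lower in mutant on the log2 scale, with values of 6.80 and 6.58 (wild type 15 and 20) against 5.38 and 5.89 (mutant 18 and 14). Dmp1 over Spp1 overlapped, at 15.1% and 10.7% of the Spp1 count in wild type and 8.56% and 12.3% in mutant. Dspp over Dmp1 did not overlap, at log2 values of -3.74 and -2.88 (wild type 15 and 20) against -1.88 and -2.86 (mutant 18 and 14), though wild-type 20 and mutant 14 almost met. The remaining ratios without overlap were Dspp over Spp1 (0.64 higher in mutant), Ibsp over Mepe (-0.50, mutant minus wild type) and Mepe over Spp1 (0.75 higher). Dspp over Mepe overlapped and differed by -0.11. For each of the 6 ratios without overlap the exact two-sided permutation p was 0.333.

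**Figure D2:**
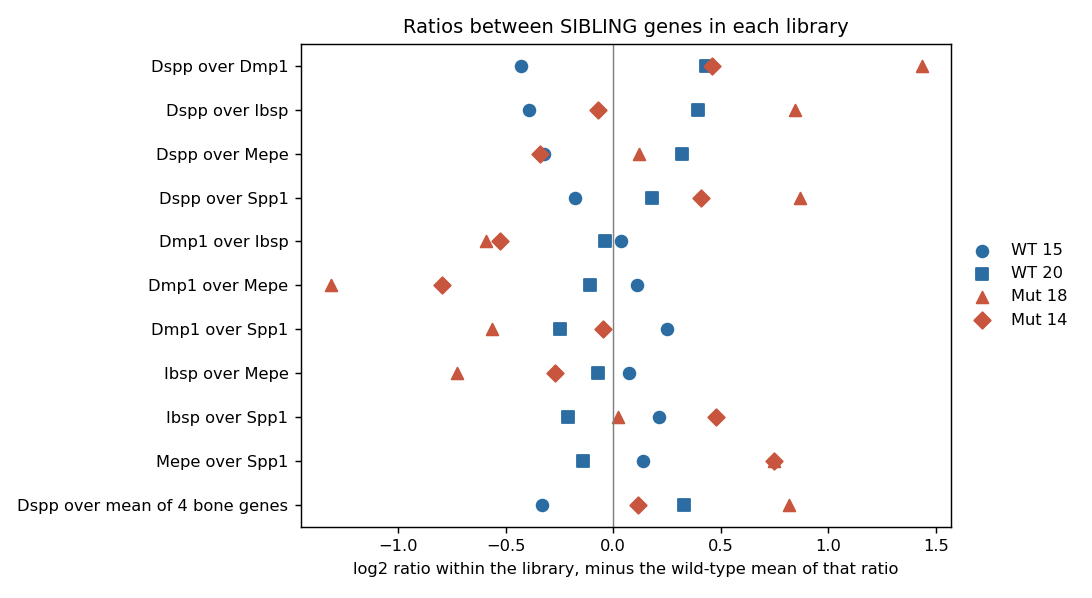
Log2 ratio of each pair of SIBLING genes within a library, and of Dspp over the mean log2 of the 4 bone genes, shown as the difference from the wild-type mean of that ratio (x axis, log2 units); each point is 1 library. Dmp1 over Ibsp has 2 tight groups 0.56 apart, and Dspp over the bone genes spreads across both genotypes.

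The profile over the 4 libraries placed Dspp nearer to Mepe than to the other bone genes. Likeness was measured as the Euclidean distance between log2 deviations from each gene's own mean over the 4 libraries, as a description. The distance from Dspp was 0.567 to Mepe, 0.761 to Spp1, 0.936 to Ibsp and 1.32 to Dmp1. The closest pair within the family was Ibsp and Spp1, at 0.506. Likeness was also ranked over 12137 other genes with a mean of at least 100, leaving out predicted and clone-type symbols. Of these, the 5 nearest to Dspp were Oscar (0.257), Fmo9 (0.286), Dcstamp (0.327), Ctsk (0.35) and Atp6v0d2 (0.432). Oscar, Dcstamp, Ctsk and Atp6v0d2 are genes known from osteoclasts, the cells that resorb bone. Nearest to the mean profile of the 4 bone genes were Podnl1 (0.0706), Cd68 (0.0936), Enpp6 (0.0944), Panx3 (0.102) and Entpd3 (0.124). These distances rest on 4 points, which all genes share along with the depth of their libraries.

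The osteoclast list as a whole had the library order of Dspp, and it was not the only list that did. Its 13 genes summed to 49552 and 71129 (wild type 15 and 20) against 82691 and 38962 (mutant 18 and 14), so library 18 was highest and library 14 lowest, as for Dspp, Ibsp and Mepe. The 12 receptors and binding partners of SIBLING proteins summed to 52705 and 55984 (wild type) against 62413 and 45682 (mutant), the same order. The skeletal muscle list also had library 18 highest and library 14 lowest, at 159508 and 129312 (wild type) against 191996 and 105999 (mutant). Ctsk, the collagen-cutting protease of osteoclasts, was at 15154, 25115, 30131 and 12475 in libraries 15, 20, 18 and 14. Acp5 was at 7199, 12252, 13418 and 6110.1 and Mmp9 at 15410, 19399, 23285 and 11220 in the same order, and none of these 3 defining markers was at 0. Of the 13 genes 3 were higher and 10 lower in mutant, with a median log2 fold change of -0.08. That median was 0.48 without mutant library 14, 0.21 without wild-type 20, -0.28 without wild-type 15 and -0.62 without mutant 18. Macrophage genes, from another known source of Spp1, summed to 6504 and 7605 (wild type) against 9135 and 6645 (mutant 18 and 14). Of the 8 genes 7 were higher and 1 lower in mutant, where 49.4% of all genes tested were lower. Higher with no overlap were 5, beside 13.4% of all genes. The median log2 fold change was 0.31, and between 0.15 and 0.45 with each library left out. With limma 0 of the 8 passed over all genes, and 1 was higher at an unadjusted p under 0.05, beside 4.27% of all genes in either direction. The part of osteoclasts and macrophages in the levels of Spp1 was not tested.

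Enamel matrix genes shared part of the library order of Dspp. Amelx, the main enamel matrix protein gene, was at 263, 1621, 2421 and 868 in libraries 15, 20, 18 and 14, Enam at 175, 1490, 1570.2 and 232, and Ambn at 802, 2491, 1383 and 540.0. Library 18 was highest for Amelx and Enam, as for Dspp, and library 20 for Ambn. Wild-type library 15 was the lowest of the 4 for Amelx and Enam and the third for Ambn and for Dspp, while it was near the mean for Ibsp and above it for Dmp1. Of the 9 tested enamel genes 3 were higher and 6 lower in mutant (median log2 fold change -0.49, and 0.27 without wild-type library 20, -1.30 without wild-type 15, -1.14 without mutant 18 and -0.03 without mutant 14). The list summed to 3445 and 8950.3 (wild type) against 7607 and 4306 (mutant). Sp6, a transcription factor of the enamel epithelium, was at 1378, 1991, 952 and 1439, Mmp20 at 45.7, 144, 61.8 and 10.1 and Klk4 at 9.42, 26.6, 6.67 and 1.02. The part of the stage of the tooth germs in these differences was not tested.

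**Figure D3:**
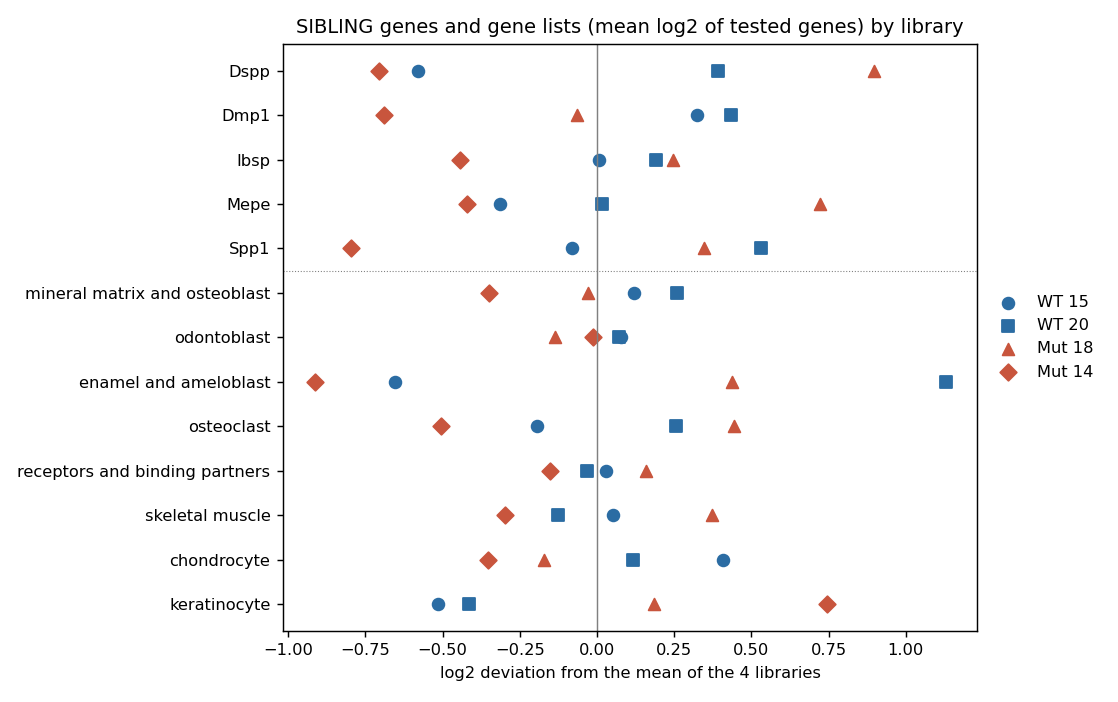
Log2 deviation of each SIBLING gene, and of the mean log2 level of each gene list shown, from its mean over the 4 libraries (x axis); each point is 1 library. Dspp, Mepe, Ibsp and the osteoclast, receptor and skeletal muscle lists have mutant 18 highest and mutant 14 lowest, while both mutants lie below both wild-type libraries for Dmp1 and for the osteoblast, odontoblast and chondrocyte lists. For the odontoblast list the gap is narrow (mean log2 9.72 in wild type 20, 9.64 in mutant 14), and its summed counts overlap.

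Dmp1 lay beside the general bone genes. In the list of 21 mineral matrix and osteoblast genes, 20 were lower in mutant, 13 of them with no overlap, where 49.4% of all genes tested were lower and 14% lower with no overlap. The median log2 fold change was -0.39, against 0.0025 over all genes. With limma, 0 of the 21 passed over all genes, and 9 were lower at an unadjusted p under 0.05, beside 1.15% of all genes. Earlier results of these libraries were known when the list was chosen, so it is a description and no separate support. The median was -0.26 without mutant library 14 and -0.61 without mutant library 18, and 16 to 20 of the 21 were lower with each library left out.

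Collagen I, the fibre on which SIBLING proteins place mineral, did not overlap between genotypes either. Col1a1 was at 541155 and 519187 (wild type 15 and 20) against 412514 and 417344 (mutant 18 and 14) (log2 fold change -0.35). Col1a2 differed by -0.32. Within each genotype the libraries stood in the other order for Col1a1 than for Dmp1. Phospho1 and Smpd3, enzymes that start mineral formation in matrix vesicles, differed by -0.58 and -0.51. Bglap, the late osteoblast gene osteocalcin, overlapped, at 833 and 1281 (wild type) against 1016 and 611 (mutant), and so did Ifitm5, at 1221 and 1822 (wild type) against 1353 and 855 (mutant). Of 2 genes known from osteocytes, Sost was at 132 and 109 (wild type) against 147 and 193 (mutant) (0.48), and Fgf23, at 27.2 and 20.8 in wild type, was at 16.2 and 6.06 in mutant (-1.21); both were among the lowest genes of the list. Ifitm5, Sost and Fgf23 were named after their values were seen. The cartilage list, whose hypertrophic cells also make Ibsp, had 10 of 10 genes lower, 8 with no overlap, against 49.4% and 14% of all genes, and a median of -0.47 (-0.31 without wild-type library 15). With limma, 0 of the 10 passed over all genes, and 5 were lower at an unadjusted p under 0.05, beside 1.15% of all genes. The cartilage list summed to 92419 and 77215 (wild type) against 70734 and 54878 (mutant). Acan, Col2a1 and Col9a1 were at 0 in none of the libraries. Odontoblast genes had 7 of 11 lower and 2 lower with no overlap, counts near the 49.4% and 14% of all genes. With limma, 0 of the 11 passed over all genes. At an unadjusted p under 0.05, 2 of the 11, Sall1 and Fam20c, were lower, beside 1.15% of all genes. The median of the odontoblast list was -0.14, and it was -0.06 without wild-type 15, -0.09 without wild-type 20 and -0.05 without mutant 18. Their defining genes Nes, Wnt10a and Wnt6 had log2 fold changes of 0.12, 0.05 and 0.21, Sall1 and Fam20c -0.88 and -0.44, and Panx3 and Dkk1 -0.28 and -0.26.

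Of 19 factors known to act on SIBLING genes or on the cells that make them, some of which are also in the osteoblast list, 15 were lower in mutant, 9 of them with no overlap, beside 49.4% and 14% of all genes, and the median log2 fold change was -0.17. With limma 0 of the 19 passed over all genes, and 6 were lower at an unadjusted p under 0.05, beside 1.15% of all genes. Dlx5 was at 1308 and 1380 (wild type 15 and 20) against 817 and 915 (mutant 18 and 14) (-0.64). Msx2, a homeobox factor that opposes Dlx5 on bone gene promoters, was at 473 and 550 (wild type) against 286 and 305 (mutant) (-0.79). Sp7, the osteoblast factor osterix, was at 7047 and 7749 (wild type) against 5521 and 4598 (mutant) (-0.55). Dlx3, an activator of Dspp, differed by -0.48. Runx2, the master factor of osteoblasts, was named after its values were seen and was at 5201 and 5061 (wild type) against 4100 and 3214 (mutant) (-0.50). The 4 factors higher in mutant were Twist2 (0.60), Klf4 (0.19), Twist1 (0.10) and Vdr (0.01), all with overlap and named after their values were seen. Library 18 was below both wild-type libraries for Dlx5, Msx2, Sp7, Dlx3, Runx2 and Dmp1. For Vdr it was above both, at 2129 against 1552 and 2029 (wild type 15 and 20). Library 18 held the most Dspp, Ibsp and Mepe of the 4 libraries. The median of the list was -0.10 without wild-type library 20, -0.25 without wild-type 15 and -0.27 without mutant 14.

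The enzymes that finish SIBLING proteins after synthesis were mixed. Of 17 tested kinase, phosphatase and protease genes, 12 were lower and 5 higher in mutant, 6 lower with no overlap, beside 49.4% of all genes lower and 14% lower with no overlap, and the median was -0.15. None passed over all genes with limma, and 3 were lower at an unadjusted p under 0.05, beside 1.15% of all genes. These 3, Fam20c, Alpl and Klk4, are also in the odontoblast, osteoblast and enamel lists, so they are not new to this list. Fam20c, the kinase that phosphorylates SIBLING proteins, was at 1161 and 1221 (wild type 15 and 20) against 949 and 809 (mutant 18 and 14) (-0.44). Alpl, the phosphatase that frees phosphate for mineral, was at 11780 and 13544 (wild type) against 10552 and 8217 (mutant) (-0.44). Bmp1, which cuts the Dspp and Dmp1 proteins into their active pieces, was at 8714 and 7922 (wild type) against 7083 and 6958 (mutant) (-0.24). Phex, which degrades the mineral-inhibiting peptide of Mepe, overlapped at 3572 and 3399 (wild type) against 4667 and 3010.5 (mutant). Bmp1 and Phex were named after their values were seen. Without mutant library 14 the median was -0.088, with 9 of 17 lower, and it was -0.32 without mutant 18 and -0.27 without wild-type 20.

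Receptors of the Arg-Gly-Asp sequence and other binding partners had no common direction. Of 12 genes 6 were lower and 6 higher, 1 in each direction with no overlap (14% of all genes lower, 13.4% higher), and the median was -0.016. With limma 0 of the 12 passed over all genes, and 1, Itga8, was higher at an unadjusted p under 0.05, beside 4.27% of all genes in either direction. Itga8 was at 1042 and 903 (wild type) against 1276 and 1218 (mutant) (0.36), and Itgb5 at 6071 and 6805 (wild type) against 5656 and 5350.0 (mutant) (-0.22). Itgb8 and Itgb6 differed by 0.24 and -0.18. Without mutant library 14 the median turned to 0.16, and it was -0.18 without mutant 18, -0.032 without wild-type 20 and -0.024 without wild-type 15.

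The 2 genes next to the cluster, Sparcl1 and Pkd2, varied less between libraries than any member did. Sparcl1, before Dspp and related to the family by descent, was at 5290 and 5892 (wild type 15 and 20) against 6281 and 5422 (mutant 18 and 14) (log2 fold change 0.06). Pkd2, after Spp1, was at 3852 and 3249 (wild type) against 3346 and 3300 (mutant) (-0.09). Farther out, Nudt9 and Zfp33b differed by -0.13 and -0.10, Abcg3 by 0.08 and Zfp951, at 75.8 and 73.7 (wild type) against 109 and 96.2 (mutant), by 0.45.

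**Figure D4:**
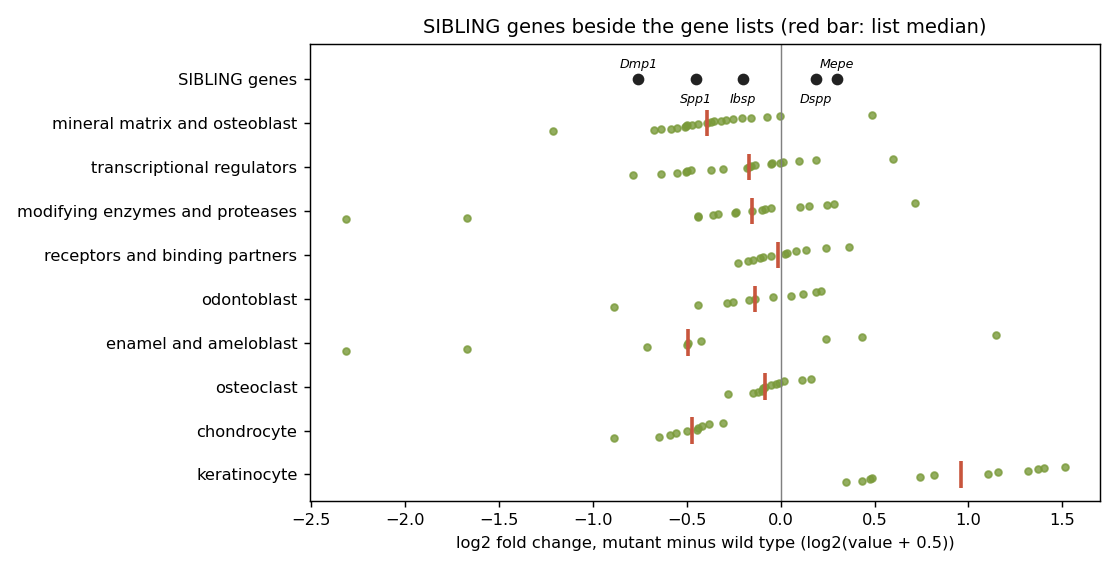
Log2 fold change, mutant minus wild type, of the 5 SIBLING genes (black) and of the tested genes of each list (green points, red bar at the list median); some genes are in more than 1 list. Dmp1 lies on the lower side with most osteoblast genes, Dspp and Mepe lie above 0, and the keratinocyte list lies above 0 throughout.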

How the data were processed

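Members and gene lists were chosen with earlier results of these data known. Per the labels, column-purified RNA went into stranded polyadenylated libraries. The authors deposited 1 table of signal, a normalized count for each gene in each library; how they scaled it is not described. Per the submitters' processing notes, DESeq2 and build mm10 were used, and the series' design text names an Illumina differential expression program. The sources used here name no aligner, counter, strand setting or annotation. Only 32.0% to 34.6% of the values above 0 were whole multiples, within 0.1, of the commonest low value of their library, so reads were not recovered and depth in reads is unknown. No 2 libraries shared an identical value above 0.

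Values were taken as log2(value + 0.5). A genotype term was fitted in limma 3.58.1 (R 4.3.3) to every gene whose mean reached 1, with variances moderated towards a trend on the mean. P-values were adjusted over all genes (Benjamini-Hochberg, threshold 0.05). The log2(value + 0.5) scale understates changes of low genes. Ratios within a library were compared by exact permutation (Python 3.11.15). The fit was tested on simulated data. Named genes were the 5 members, up to 4 genes of smallest p in a list, the first 3 of a cell type list, the 5 nearest profiles and up to 4 neighbours a side. Alternatives covered pseudocount, scaling, filter, variance model and each library left out. Antisense and overlapping genes could share reads.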

Additional observations from a re-analysis of the deposited data

How the results depend on the processing

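Under 8 other settings of pseudocount, scaling, filter and variance model, each of the 5 genes kept its direction and none passed the threshold. Dspp stayed between 0.16 and 0.20, Dmp1 between -0.76 and -0.75, Ibsp between -0.20 and -0.15, Mepe between 0.21 and 0.31 and Spp1 between -0.45 and -0.44 (log2 fold changes). With each library left out, the log2 fold change ranged from -0.61 to 0.99 for Dspp, -1.07 to -0.44 for Dmp1, -0.54 to 0.14 for Ibsp, -0.27 to 0.87 for Mepe and -1.02 to 0.12 for Spp1. The turned values were -0.30 (without wild-type library 15) and -0.61 (without mutant 18) for Dspp, -0.27 for Mepe (without mutant 18), and 0.14 for Ibsp and 0.12 for Spp1 (both without mutant 14); the cause was not tested. The number of genes called was 2, and 4 with pseudocount 1 or robust variances, 1 with no filter or no trend, and 0 to 5 with each library left out. Dspp against the bone genes stayed between 0.31 and 0.53 under 4 other definitions and between 0.11 and 0.82 with each library left out. The Dmp1 to Ibsp ratio was singled out after seeing the data, and so were its left-out values and those of the lists. The labels give nothing by which to pair libraries across genotypes, so no paired analysis was made. The 2 libraries a genotype limit the precision.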
